A study of Zea mays with 18 samples.

Results

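Transcripts of the small subunit of Rubisco and of the chloroplast glyceraldehyde-3-phosphate dehydrogenase (GAPDH) were followed in maize leaves from crowded and open stands. The set holds 4 of the 31855 gene models in the deposited files, chosen by name with earlier results of these data known. It comprises 2 models named rbcS, GRMZM2G098520 (also rbcs1, ssu1 and rbcS-m3) and GRMZM2G113033, which encode the Rubisco small subunit. It further comprises G3PD (GRMZM2G337113, also GAPA and gpa1), which encodes the A subunit of the chloroplast GAPDH, and gpb1 (GRMZM5G845611), which encodes its B subunit. All 4 were read in all 18 libraries and all 4 passed the filter for testing.

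The plants were of the maize hybrid Xianyu 335, sampled at grain filling. Leaf RNA was sequenced from 6 groups of 3 libraries. HA, HE and HB came from high plant density and were the third leaf above the ear (the upper leaf), the ear leaf and the third leaf below the ear (the lower leaf). LA, LE and LB were, by their titles, the same leaves at low density. For LA the title and the treatment label disagree, since that label gives high density for all 3 libraries; the titles were followed, and every comparison that uses LA carries this conflict. The number of plants per area is not in the labels. Whether a group's libraries stem from different plants is not in the labels either, and p-values therefore measure only the spread between these libraries.

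Rubisco fixes carbon dioxide onto ribulose bisphosphate in the Calvin cycle, and its holoenzyme is built from a large subunit encoded in the plastid and a small subunit encoded by nuclear rbcS genes. In maize, a C4 plant, rbcS transcripts accumulate in the bundle sheath cells around the veins, where carbon dioxide is concentrated, and not in the mesophyll. The chloroplast GAPDH, made of A and B subunits, uses NADPH to reduce bisphosphoglycerate to the triose phosphate that leaves the cycle. In maize a large share of that reduction takes place in the mesophyll, after export of phosphoglycerate from the bundle sheath.

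Levels were deposited as RPKM, read numbers scaled to the length of the gene model and to the reads of the library, so that values of different genes can be set side by side per length. The summed RPKM of the mesophyll genes pep1, Ppdk1 and mdh6 ranged from 2206 to 14033 over the 18 libraries. That of the bundle sheath gene ME1 ranged from 326 to 964, so both leaf cell types were represented in every library. Relative depth, recovered from the smallest values, differed at most 1.27-fold between libraries. The 4 gene models lay among the abundant transcripts, with mean levels above those of 98.0% to 99.9% of the 21184 genes tested. They also varied more between libraries of 1 group than most genes did. The residual SD on the log2 scale was 0.40 for each rbcS model, 0.38 for G3PD and 0.51 for gpb1, larger than that of 85.7%, 86.2%, 83.7% and 93.5% of tested genes.

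Over all libraries the mean level was 166 RPKM for rbcS GRMZM2G098520, 433 RPKM for rbcS GRMZM2G113033, 1087 RPKM for G3PD and 786 RPKM for gpb1. The group means of rbcS GRMZM2G098520 ran from 122 ± 31.7 RPKM (SD, n = 3 here and below) in HB through 137 ± 35.8 in LE, 141 ± 37.8 in HA, 147 ± 52.3 in LA and 204 ± 24.7 in HE to 244 ± 46.8 in LB. The group means of rbcS GRMZM2G113033 ran from 264 ± 73.1 RPKM in HB through 375 ± 137 in LA, 381 ± 83.7 in LE, 388 ± 81.1 in HA and 574 ± 164 in LB to 618 ± 76.3 in HE. In both models every pair of neighbouring groups in this order overlapped, and HB was lowest while HE and LB were the upper pair.

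The order was another one for the GAPDH subunits. The group means of G3PD ran from 372 ± 79.9 RPKM in HB through 1117 ± 21.2 in LE, 1180.0 ± 126 in HE, 1219.7 ± 246 in HA and 1235 ± 527 in LB to 1396 ± 383 in LA. The group means of gpb1 ran from 155 ± 41.6 RPKM in HB through 705 ± 141 in HE, 737 ± 403 in LB, 879 ± 128 in LE and 965 ± 333 in HA to 1274 ± 255 in LA. For both subunits HB was separated from its next neighbour, LE for G3PD and HE for gpb1, while the 5 other groups formed a series of overlapping neighbours. The 4 gene models together made up 0.123% to 0.195% of the summed RPKM of a library in HB and 0.281% to 0.661% in the other 5 groups.

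**Figure D1:**
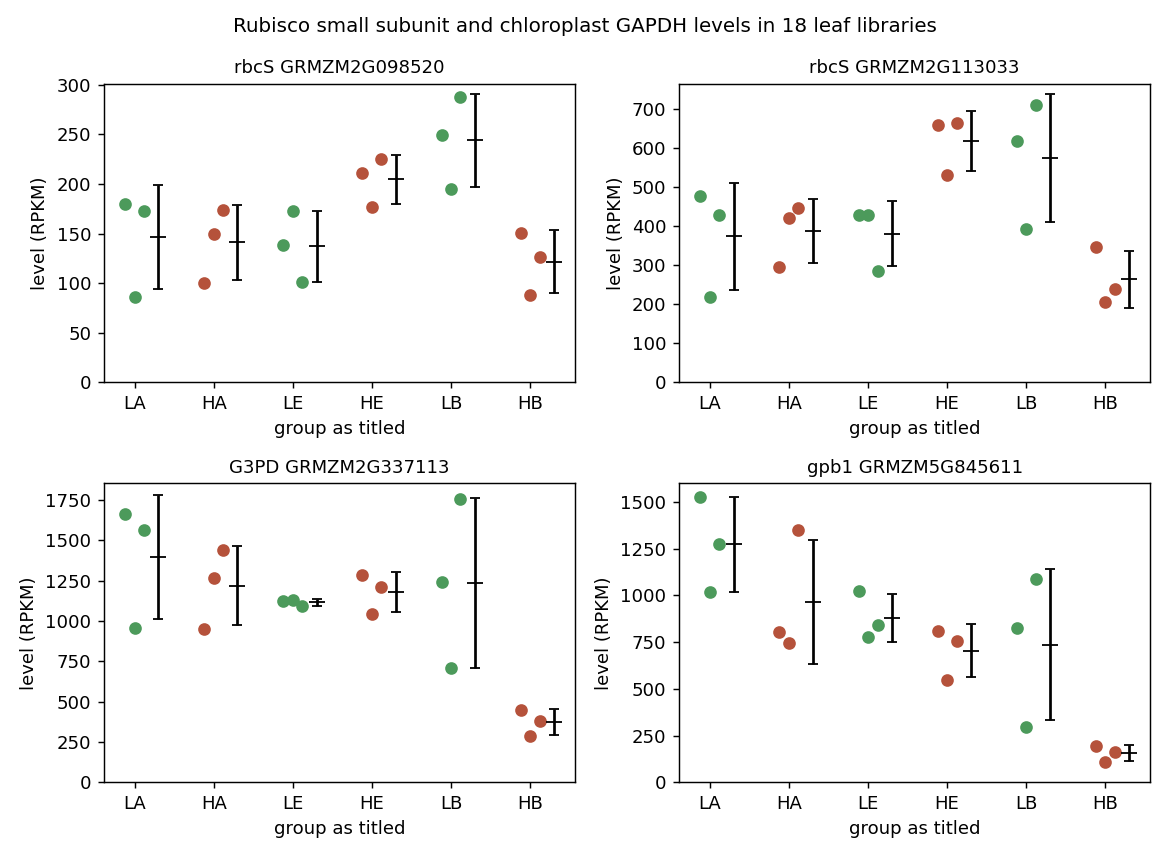
Levels in RPKM of the 4 gene models in each library, one panel per gene model, by group as titled (green, low density; red, high density); black marks are the group mean ± SD of 3 libraries. The HB libraries lie between 289 and 448 RPKM for G3PD and between 111 and 193 RPKM for gpb1, below all 15 other libraries, whereas for the rbcS models HB overlaps with the upper-leaf groups and HE and LB lie highest.

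In the lower leaf, transcripts of all 4 gene models fell at high density. The comparison asks how crowding goes with the leaf that sits lowest of the 3 sampled. The Rubisco small subunit models fell to fitted ratios of high to low density of 0.494 for GRMZM2G098520 and 0.464 for GRMZM2G113033. The GAPDH subunits fell to 0.317 for G3PD and 0.236 for gpb1.

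The 3 HB libraries gave 151, 87.8 and 126 RPKM of rbcS GRMZM2G098520 and the 3 LB libraries 249, 195 and 288 RPKM. All HB libraries lay below all LB libraries, at a log2 difference of -1.02 ± 0.29 (SE; limma, adjusted p = 0.0125). For rbcS GRMZM2G113033 the HB libraries gave 347, 207 and 239 RPKM and the LB libraries 618, 392 and 711 RPKM. The groups were again apart, with the highest HB and lowest LB library close to each other. On the log2 scale the fall was -1.11 ± 0.30 (adjusted p = 0.00955).

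G3PD, the A subunit, gave 448, 289 and 378 RPKM in HB and 1239, 706 and 1759 RPKM in LB. The LB libraries were spread widely, and the lowest of them still lay above every HB library. Its log2 difference was -1.66 ± 0.29 (adjusted p = 0.000606). gpb1, the B subunit, gave 193, 111 and 162 RPKM in HB and 827, 297 and 1088 RPKM in LB. LB replicate 2 was far below the other two LB libraries and nearest to HB, and the groups did not overlap. This log2 difference was the most negative of the 4, at -2.09 ± 0.37 (adjusted p = 0.000675).

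Across all tested genes, 11.3% were called lower in HB than in LB at an adjusted p under 0.05, against 4 of the 4 gene models. The libraries of HB and LB did not overlap for 39.9% of all tested genes, and for 4 of these 4. The median log2 difference of all genes was 0.16, with 4676 genes called higher and 2394 lower, a split that became 3036 and 3312 after median-ratio rescaling and 2991 and 3539 after quantile normalization. All 4 gene models were called lower under both scalings, at log2 differences of -0.94 to -2.24. Leaving out single libraries moved the rbcS calls: without HB replicate 2 the adjusted p of GRMZM2G098520 was 0.0656, and without LB replicate 3 it was 0.0607 for GRMZM2G098520 and 0.0537 for GRMZM2G113033. Both GAPDH calls held without any 1 of the 6 libraries, with a highest adjusted p of 0.00448 for G3PD and 0.00531 for gpb1.

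Cell type markers moved in the same comparison. All 3 mesophyll genes were lower in HB, by a log2 difference of -2.87 ± 0.32 for pep1 (phosphoenolpyruvate carboxylase, adjusted p = 2.53e-05), -1.51 ± 0.20 for mdh6 (malate dehydrogenase, adjusted p = 7.63e-05) and -1.39 ± 0.30 for Ppdk1 (pyruvate phosphate dikinase, adjusted p = 0.00237). Their summed level was 2206 to 3172 RPKM in HB and 6389.6 to 12236 RPKM in LB, and LB replicate 2, the low library of gpb1 and G3PD, was also the lowest LB library here. The bundle sheath gene ME1 (NADP-dependent malic enzyme) gave 804, 456 and 463 RPKM in HB and 904, 892 and 878 RPKM in LB, a log2 difference of -0.69 ± 0.24 (adjusted p = 0.0383). That call was lost without either of 2 HB libraries or any LB library, at adjusted p of 0.055 to 0.148, and held without HB replicate 1. It was also lost with no filter (adjusted p = 0.0725), with quantile normalization (0.0683) and in a fit of only these 2 groups (0.0998). The Ppdk1 call was lost with no filter (adjusted p = 0.0930). The phloem gene sut1 gave 224 to 279.8 RPKM in HB and 201 to 276 RPKM in LB, with a log2 difference of 0.04 ± 0.18 (adjusted p = 0.887). Of 3 epidermis and wax genes 2 were tested and neither was called, although ocl1 was called lower after median-ratio rescaling (-0.37, adjusted p = 0.0213) and quantile normalization (-0.35, adjusted p = 0.0252), while the third, gl15, was listed at 0 in 3 libraries and near 0 elsewhere. The part of these markers in the falls was not tested, and in leaf RNA fewer cells of a type and less RNA per cell cannot be told apart.

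**Figure D2:**
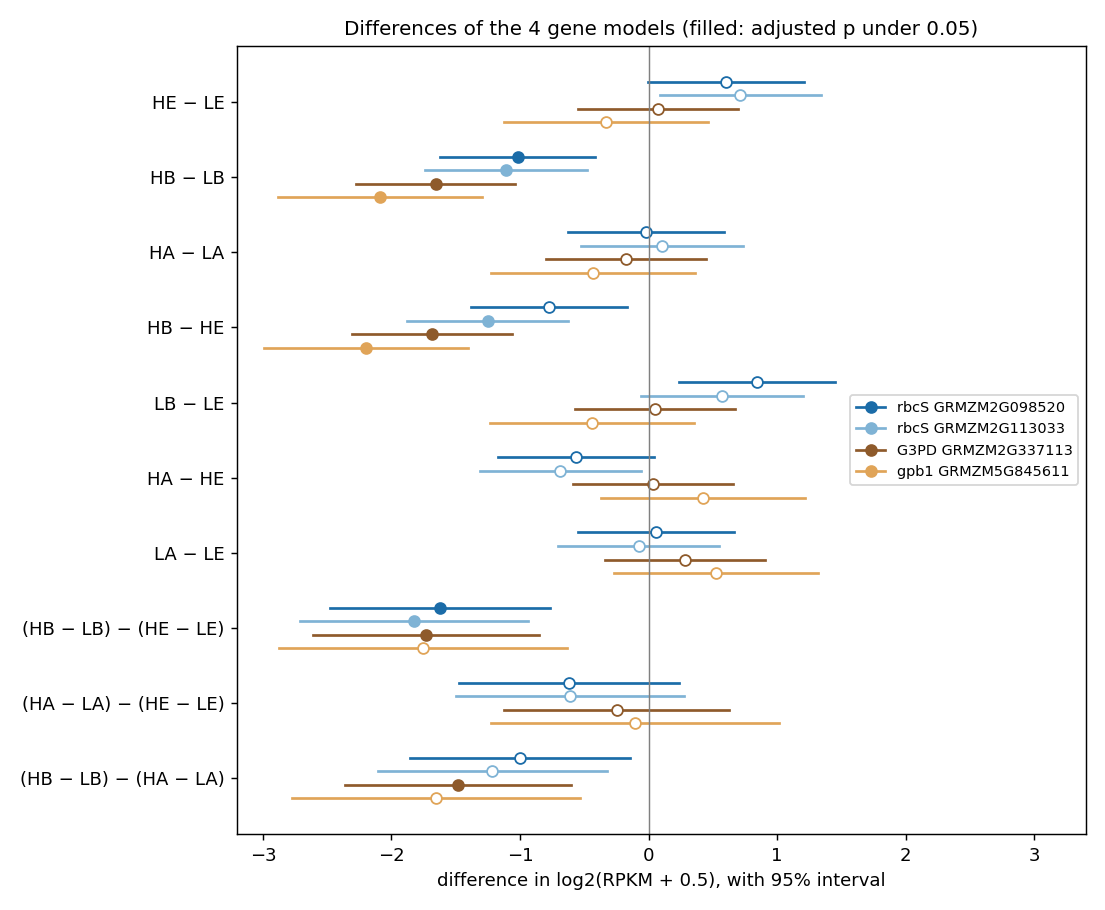
Fitted differences in log2(RPKM + 0.5) for 10 comparisons of the 4 gene models, with 95% intervals; filled points have an adjusted p under 0.05. All 4 lie left of 0 for HB − LB, from -1.02 to -2.09, and the density difference of the lower leaf minus that of the ear leaf is -1.62 to -1.82 for all 4, called for 3.

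In the ear leaf none of the 4 gene models passed the test. The 3 HE libraries gave 211, 177 and 225 RPKM of rbcS GRMZM2G098520 and the 3 LE libraries 138, 172 and 100.7 RPKM. The HE libraries were all above the LE libraries, by a narrow margin between 177 and 172. The log2 difference was 0.60 ± 0.29 (adjusted p = 0.168, 95% interval -0.0032 to 1.21). rbcS GRMZM2G113033 gave 660.0, 530.0 and 664 RPKM in HE and 429.5, 429 and 284 RPKM in LE. These groups were apart, at a log2 difference of 0.72 ± 0.30 (adjusted p = 0.116, 95% interval 0.0872 to 1.34), and in a fit of only these 2 groups it passed, with an adjusted p of 0.0321. That fit called 2547 of all 21184 tested genes higher, against 1900 in the fit of all groups.

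G3PD gave 1286, 1041 and 1213 RPKM in HE and 1126, 1132 and 1092 RPKM in LE. The LE libraries were close together and lay inside the HE range. Its log2 difference was 0.07 ± 0.29 (adjusted p = 0.898, 95% interval -0.55 to 0.70). gpb1 gave 812, 546 and 756 RPKM in HE and 1022, 775 and 841 RPKM in LE, again with overlap. The log2 difference was -0.33 ± 0.37 (adjusted p = 0.596, 95% interval -1.12 to 0.46). Of all tested genes 8.97% were called higher and 4.97% lower in HE, so 0 of 4 calls is near that background. The split of 1900 genes higher and 1053 lower became 1414 and 1645 after quantile normalization. At an unadjusted p under 0.05 limma gave 6372 genes in all, and 1 of the 4. Libraries did not overlap for 40.9% of all tested genes, a share near the 2 of 4 seen here.

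In the upper leaf, under the label conflict of LA, none of the 4 gene models passed the test and all 4 overlapped between densities. rbcS GRMZM2G098520 gave 99.9, 149 and 174 RPKM in HA and 180.2, 86.3 and 173 RPKM in LA. rbcS GRMZM2G113033 gave 296, 422 and 447 RPKM in HA and 476, 219 and 429 RPKM in LA. LA replicate 2 was the lowest library of both groups for both models. G3PD gave 953, 1268 and 1438 RPKM in HA and 1666, 959 and 1565 RPKM in LA. gpb1 gave 805, 744 and 1348 RPKM in HA and 1529, 1018 and 1275 RPKM in LA. For G3PD the lowest libraries of the 2 groups were alike and 2 of the 3 LA libraries lay above every HA library, and HA replicate 3 alone of the HA libraries reached the LA range for gpb1.

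The log2 differences between HA and LA were -0.02 ± 0.29 for rbcS GRMZM2G098520, 0.11 ± 0.30 for rbcS GRMZM2G113033, -0.17 ± 0.29 for G3PD and -0.43 ± 0.37 for gpb1, with adjusted p of 0.992, 0.941, 0.887 and 0.761. Their 95% intervals still included changes of about 1 log2 unit in gpb1, from -1.23 to 0.36, and of -0.62 to 0.59 in GRMZM2G098520. Of all tested genes 0.118% were called in this comparison in either direction, and for 14.3% the libraries of HA and LA did not overlap. At an unadjusted p under 0.05 limma gave 1864 genes, none of them among the 4.

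Between leaf positions of the crowded stand, HB was lower than HE for 3 of the 4 gene models, against 10.7% of all tested genes called lower (3647 higher and 2257 lower, or 2529 and 2854 after median-ratio rescaling). The log2 difference was -1.25 ± 0.30 for rbcS GRMZM2G113033 (adjusted p = 0.00508), -1.68 ± 0.29 for G3PD (adjusted p = 0.000595) and -2.20 ± 0.37 for gpb1 (adjusted p = 0.000497). For rbcS GRMZM2G098520 it was -0.78 ± 0.29, and missed the threshold at an adjusted p of 0.0532. The libraries of HB and HE did not overlap for any of the 4, nor for 49.0% of all tested genes. That value passed under several other settings, with an adjusted p of 0.0393 without HB replicate 1, 0.0476 with a stricter filter on low values and 0.0423 after quantile normalization. The mesophyll genes were lower in HB than in HE as well, by log2 differences of -3.06 for pep1, -1.29 for mdh6 and -1.49 for Ppdk1 (adjusted p = 1.26e-05, 0.000245 and 0.00166). ME1 was at -0.67 (adjusted p = 0.0481) and sut1 at -0.34 (adjusted p = 0.165). Of the epidermis and wax genes, gl1 was called lower at -1.01 (adjusted p = 0.00245), from low means of 1.39 RPKM in HE and 0.43 in HB. For ocl1 the value was -0.18 (adjusted p = 0.216). The part of all these markers in the differences was not tested.

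Between the upper and lower leaves of the crowded stand both GAPDH subunits were called and neither rbcS model was. G3PD was higher in HA than in HB by a log2 difference of 1.71 ± 0.29, a ratio of 3.28 (adjusted p = 0.0002), and gpb1 by 2.62 ± 0.37, a ratio of 6.14 (adjusted p = 4.3e-05). Neither subunit overlapped between HA and HB, as was the case for 54.8% of all tested genes. The rbcS models overlapped, with log2 differences of 0.21 ± 0.29 for GRMZM2G098520 (adjusted p = 0.576) and 0.57 ± 0.30 for GRMZM2G113033 (adjusted p = 0.134). Of all tested genes 15.5% were called higher in HA than in HB (3294 higher and 6014 lower, or 4497 and 4325 after median-ratio rescaling), and 2 of the 4 gene models were. The mesophyll genes were higher in HA, by log2 differences of 3.39 for pep1, 1.74 for mdh6 and 1.71 for Ppdk1 (adjusted p = 1.25e-06, 6.23e-06 and 0.000248), while ME1 was at -0.12 and sut1 at 0.16 (adjusted p = 0.711 and 0.499). The epidermis and wax gene gl1 was called higher in HA, at 1.01 (adjusted p = 0.00128), and ocl1 was at -0.21 (adjusted p = 0.122). The part of these markers was not tested.

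No member of the set was called between HA and HE, where 2.44% of all tested genes were. The log2 differences, upper minus ear leaf, were -0.56 ± 0.29 for rbcS GRMZM2G098520, -0.69 ± 0.30 for rbcS GRMZM2G113033, 0.03 ± 0.29 for G3PD and 0.42 ± 0.37 for gpb1, with adjusted p of 0.374, 0.281, 0.974 and 0.657. The libraries of HA lay below those of HE for both rbcS models and overlapped with them for both GAPDH subunits, beside 23.4% of all tested genes without overlap. At an unadjusted p under 0.05 limma gave 3166 genes in all and 1 of the 4.

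At low density no position difference of these genes passed the test. Of all tested genes 0.288% were called between LB and LE, 5.74% between LA and LE and 9.49% between LA and LB. The split of 46 genes higher and 15 lower in LB than in LE became 43 and 7 after median-ratio rescaling, and that of 768 higher and 447 lower in LA than in LE became 668 and 770 after scaling to equal sums. Between LB and LE the log2 difference was 0.85 ± 0.29 for rbcS GRMZM2G098520 (adjusted p = 0.245), whose LB libraries of 195 to 288 RPKM were all above its LE libraries of 100.7 to 172 RPKM, where 13.9% of all tested genes had no overlap. The other log2 differences between LB and LE were 0.57 ± 0.30 for rbcS GRMZM2G113033, 0.05 ± 0.29 for G3PD and -0.44 ± 0.37 for gpb1, with adjusted p of 0.469, 0.970 and 0.689 and overlapping libraries. Between LA and LE the log2 differences were 0.06, -0.08, 0.28 and 0.52 in the same gene order, with adjusted p of 0.915, 0.886, 0.549 and 0.368. Between LA and LB they were -0.79, -0.65, 0.23 and 0.96, with adjusted p of 0.0895, 0.168, 0.634 and 0.110, and of these the gpb1 value passed without LB replicate 3, at 1.34 (adjusted p = 0.0345). At an unadjusted p under 0.05 limma gave 2552, 5919 and 5886 genes in these comparisons, and 1, 0 and 3 of the 4. The bundle sheath gene ME1 was called lower in LA than in LB, at -0.997 (limma, adjusted p = 0.0186), and no mesophyll gene was called there.

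The density difference itself differed between leaves, by a test of the interaction, for 3 of the 4 gene models between the lower and the ear leaf. The density difference of the lower leaf minus that of the ear leaf was -1.62 ± 0.41 for rbcS GRMZM2G098520 (adjusted p = 0.0364), -1.82 ± 0.42 for rbcS GRMZM2G113033 (adjusted p = 0.0261) and -1.73 ± 0.42 for G3PD (adjusted p = 0.0310). For gpb1 it was of like size, -1.76 ± 0.53, and was not called (adjusted p = 0.0749). Of all tested genes 2.09% were called lower in this test. The mesophyll gene pep1 was called lower as well, at -2.61 (limma, adjusted p = 0.00728). Ppdk1 was at -1.14, mdh6 at -0.96 and the bundle sheath gene ME1 at -1.11, and these were not called (adjusted p = 0.139, 0.0700 and 0.0787). The part of the markers in these differences was not tested. For the rbcS models the fitted density difference was positive and not called in the ear leaf and negative and called in the lower leaf, and for gpb1 both were negative.

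The interaction calls of the rbcS models and G3PD lay near the threshold. That of rbcS GRMZM2G098520 was lost without any 1 of 10 of the 12 libraries and held without HB replicate 1 or LB replicate 2. That of rbcS GRMZM2G113033 was lost without any 1 of 8, and held without HE replicate 2, HB replicate 1, LE replicate 1 or LB replicate 2. That of G3PD was lost without any 1 of 10, and held without HB replicate 1 or LB replicate 2. The highest adjusted p so reached were 0.109, 0.0858 and 0.0910. For gpb1 the test passed without LB replicate 2, at -2.31 (adjusted p = 0.00209).

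Between the lower and the upper leaf the density difference differed for G3PD, by -1.48 ± 0.42 (adjusted p = 0.0311), against 5.10% of all tested genes called lower (1328 higher and 1081 lower, or 1097 and 1559 after quantile normalization). That call was lost without any 1 of 6 of the 12 libraries, namely HA replicate 3, HB replicate 2 or 3, LA replicate 2 and LB replicate 1 or 3, at adjusted p up to 0.0917. The values of the others were -1.002 ± 0.41 for rbcS GRMZM2G098520 (adjusted p = 0.125), -1.21 ± 0.42 for rbcS GRMZM2G113033 (adjusted p = 0.0724) and -1.65 ± 0.53 for gpb1 (adjusted p = 0.0544). The mesophyll genes were called lower in this test too, at -2.69 for pep1, -1.52 for mdh6 and -1.46 for Ppdk1 (limma, adjusted p = 0.00278, 0.00445 and 0.0358). ME1 was at -0.87 (adjusted p = 0.111), and the part of these markers was again not tested. Between the upper and the ear leaf 0.00% of all tested genes and 0 of the 4 gene models were called, with limma giving 3284 genes and none of the 4 at an unadjusted p under 0.05. The 4 values there ranged from -0.62 to -0.10.

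The ratio of Rubisco small subunit to GAPDH transcripts was higher at high density in all 3 leaves. Ratios of genes within a library do not depend on scaling by 1 factor per library. Quantile normalization, which is not such a scaling, was not applied to the ratios. The summed level of the 2 rbcS models over that of the 2 GAPDH subunits was 0.415, 0.446 and 0.451 in HE and 0.264, 0.315 and 0.199 in LE. It was 0.775, 0.737 and 0.676 in HB and 0.420, 0.585 and 0.351 in LB. In the upper leaf it was 0.225, 0.284 and 0.223 in HA and 0.206, 0.154 and 0.212 in LA. In each of the 3 leaves all high-density libraries, by title, lay above all low-density libraries. The upper leaf carries the LA label conflict. Among single genes, libraries did not overlap for 40.9% of all tested genes in the ear leaf, 39.9% in the lower and 14.3% in the upper. No such share was computed for ratios of other genes.

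The log2 ratio of rbcS to GAPDH was higher at high density by 0.62 on average over the 3 leaves, by 0.36 in the upper, 0.78 in the ear and 0.72 in the lower leaf. A 2-sided exact permutation test within leaves gave p = 0.00025, the smallest that its 8000 arrangements allow, and an adjusted p of 0.00225 over the 9 ratio tests made. With the ear and lower leaves alone, free of the LA conflict, the difference was 0.75 (exact permutation test, adjusted p = 0.0112). An exact permutation test within a single leaf, with 3 against 3 libraries, cannot go below p = 0.1, which each of the 3 leaves reached. In the ear leaf the rbcS means were 204 and 618 RPKM in HE against 137 and 381 in LE, beside GAPDH means of 1180.0 and 705 in HE and 1117 and 879 in LE. In the lower leaf both the numerator and the denominator were lower at high density. Between HE and LE the log2 difference was 0.43 for ME1 and -0.26, -0.56 and -0.25 for pep1, mdh6 and Ppdk1, none of them called. In the same order the values were -0.69, -2.87, -1.51 and -1.39 between HB and LB. Between HA and LA they were 0.19, -0.19, 0.01 and 0.07. The part of bundle sheath and mesophyll RNA in the ratio, by density or by position, was not tested.

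By position the mean rbcS to GAPDH ratio was highest in the lower and lowest in the upper leaf at each density. The group means were 0.244 ± 0.0346 in HA, 0.437 ± 0.0194 in HE and 0.730 ± 0.0499 in HB. At low density they were 0.191 ± 0.0316 in LA, 0.260 ± 0.0582 in LE and 0.452 ± 0.120 in LB. The lower leaf exceeded the ear leaf by 0.76 on the log2 scale (exact permutation test within densities, p = 0.005, the smallest possible, adjusted p = 0.0104). The upper leaf was below the ear leaf by a log2 difference of -0.64 (exact permutation test, p = 0.015, adjusted p = 0.0225). At low density these leaves overlapped, at 0.154 to 0.212 in LA and 0.199 to 0.315 in LE, and LA carries the label conflict.

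**Figure D3:**
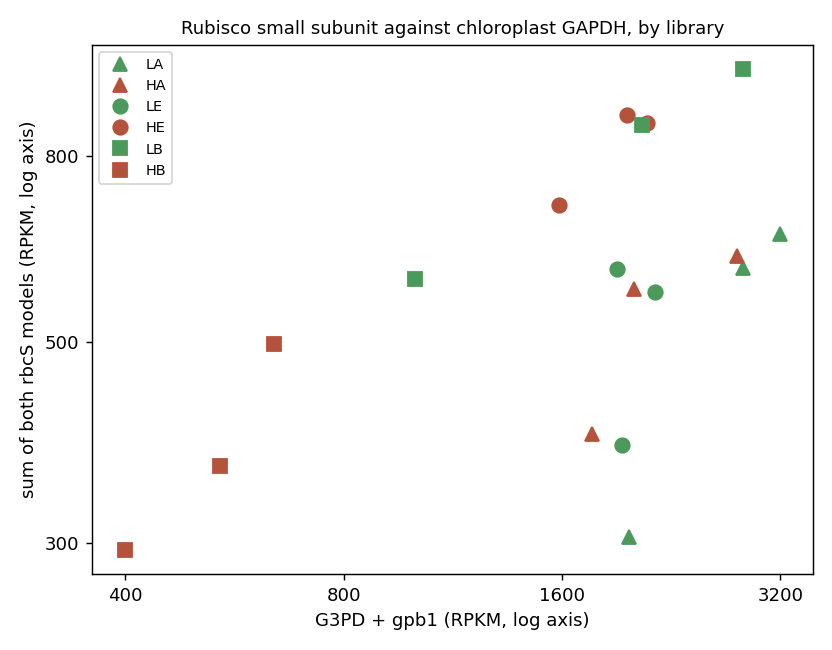
Summed level of the 2 rbcS models against that of G3PD and gpb1 in each of 18 libraries, both axes in RPKM on log scales (triangles, upper leaf; circles, ear leaf; squares, lower leaf; green, low and red, high density). The HB libraries lie at the lower left, and the HE libraries lie above the LE libraries at a like GAPDH level.

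The balance between the GAPDH subunits moved as well. The ratio of G3PD to gpb1 was 2.32, 2.61 and 2.34 in HB and 1.498, 2.38 and 1.62 in LB. It was 1.58, 1.91 and 1.60 in HE and 1.10, 1.46 and 1.299 in LE. In the upper leaf it was 1.18, 1.71 and 1.07 in HA and 1.09, 0.942 and 1.23 in LA. The densities were apart in the ear leaf and overlapped in the other two leaves.

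The A subunit outweighed the B subunit per length in 17 of 18 libraries, the exception being LA replicate 2. The log2 ratio was higher at high density by 0.36 over the 3 leaves (exact permutation test, p = 0.00575, adjusted p = 0.0104), and positive in each leaf at 0.26 in the upper, 0.40 in the ear and 0.43 in the lower leaf. With the ear and lower leaves alone, free of the LA conflict, the difference was 0.42 (exact permutation test, adjusted p = 0.0225). The log2 ratio was higher in the lower than in the ear leaf by 0.50 (exact permutation test, p = 0.005, the smallest possible, adjusted p = 0.0104). The upper leaf differed from the ear leaf by -0.32 (exact permutation test, p = 0.055, adjusted p = 0.0675), which did not pass.

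The ratio of rbcS GRMZM2G098520 to rbcS GRMZM2G113033 lay between 0.320 and 0.526 in all libraries, so GRMZM2G113033 was the more abundant model in each of them. The group means were 0.331 ± 0.00961 in HE, 0.359 ± 0.0402 in LE, 0.360 ± 0.0263 in HA, 0.392 ± 0.0127 in LA, 0.435 ± 0.0532 in LB and 0.462 ± 0.0561 in HB. Every lower-leaf library, at 0.404 or more, was above every ear-leaf library, at 0.401 or less. The lower leaf exceeded the ear leaf by 0.37 on the log2 scale (exact permutation test, p = 0.005, the smallest possible, adjusted p = 0.0104). Density moved it by -0.05 (exact permutation test, p = 0.431), and the upper minus ear difference was 0.13 (exact permutation test, p = 0.06, adjusted p = 0.0675). The 2 models are copies of 1 gene family, RefSeq lists them as separate genes, and how reads shared by the copies were counted and whether strand was used are not given in the sources used here. The split between the 2 models is therefore uncertain, and their sum rests less on it.

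**Figure D4:**
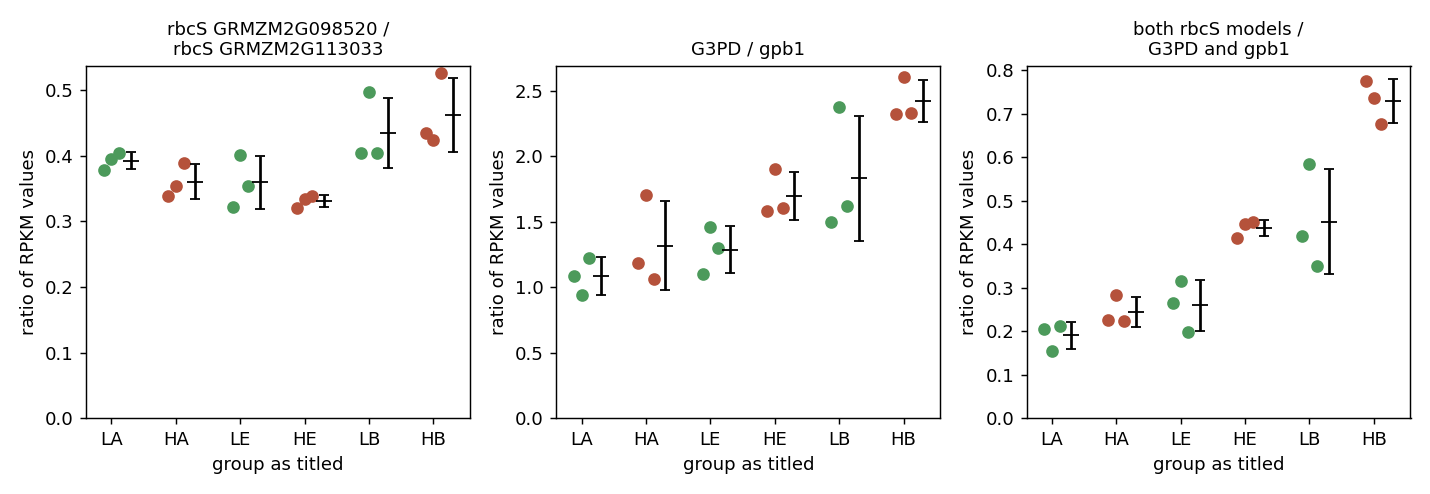
Ratios of RPKM values within each library, by group as titled (green, low and red, high density), with the group mean ± SD of 3 libraries in black. The rbcS to GAPDH ratio is higher at high density in all 3 leaves and reaches 0.676 to 0.775 in HB, and the ratio between the rbcS models is highest in the lower leaf.

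Within groups the 4 gene models deviated together. In 4 of the 6 groups 1 library was lowest for all 4 of them, and it was replicate 2 in HE, HB, LA and LB. In 4 of the 6 groups 1 library was highest for all 4, namely HA replicate 3, HB replicate 1, LA replicate 1 and LB replicate 3. Replicate 2 of HE, HB, LA and LB was also lowest in summed mesophyll genes, at 9098, 2206, 10503 and 6389.6 RPKM. For ME1 replicate 2 was lowest in HE, HB and LA but not in LB, and for sut1 in none of these groups. The low replicate 2 was thus not particular to this set, and its share among all genes was not counted. As a description over 18 libraries that share the scaling of each library, deviations from the group means had a Pearson r of 0.95 between the rbcS models, 0.89 between G3PD and gpb1, and 0.62 to 0.89 across the pairs of 1 rbcS and 1 GAPDH gene. For the levels themselves r was 0.93 between the rbcS models and 0.96 between the GAPDH subunits, but 0.32 for rbcS GRMZM2G098520 with gpb1 and 0.51 for rbcS GRMZM2G113033 with gpb1.

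The genes with the most similar pattern over the 18 libraries were other ones for Rubisco than for GAPDH. Among the 1939 tested genes with a symbol, fdx2, which encodes a ferredoxin, had the highest Pearson r with both rbcS models, 0.88 for GRMZM2G098520 and 0.91 for GRMZM2G113033. rca1, which encodes Rubisco activase, followed with 0.85 and 0.91, and shbp1 (GRMZM5G814089) with 0.83 and 0.90. The next for GRMZM2G098520 were rca3 and ME1, each at 0.79, and for GRMZM2G113033 lhcb4, a light-harvesting protein gene, and a second model named shbp1 (GRMZM6G741210), each at 0.81. Over all tested genes the highest r was 0.91, with AC234522.1_FG005, for GRMZM2G098520 and 0.94, with GRMZM5G840703, for GRMZM2G113033.

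G3PD was most similar to ris2, which encodes a Rieske iron-sulfur protein (r = 0.98), and then to psad1 of photosystem I, ppr2, the magnesium chelatase gene oy1 and the plastid malate transporter gene pOMT1, each at 0.97. gpb1 was most similar to psbs1, the photosystem II subunit S gene, pOMT1 and ppr2, each at 0.98, and then to nbp1 and oy1, each at 0.97. Over all tested genes the highest r was 0.99 for each, with GRMZM2G048907 for G3PD and GRMZM2G012276 for gpb1. An r above 0.9 was held by 2 genes with GRMZM2G098520, 4 with GRMZM2G113033, 366 with G3PD and 624 with gpb1. These values describe 18 libraries in 6 groups and carry no test.

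Proteins that activate and assemble Rubisco were followed as a list of 3 genes, chosen by name with earlier results of these data known. In the ear leaf none of the 3 was called in the fit of all groups, whereas in a fit of only HE and LE all 3 were, bsd2 as lower (adjusted p = 0.0197) and rca1 and rca3 as higher (0.0235 and 0.0380). That fit called 2547 of all 21184 tested genes higher and 1621 lower, against 1900 and 1053 in the fit of all groups. bsd2 was also called lower after scaling to equal sums (adjusted p = 0.0438). rca1, which encodes Rubisco activase, gave 535, 508 and 542 RPKM in HE and 404, 361 and 286 RPKM in LE, with no overlap, and missed the threshold at 0.61 ± 0.23 (adjusted p = 0.0894). rca3, a minor activase model, was at 0.90 ± 0.38 (adjusted p = 0.118), and bsd2, a chaperone needed for Rubisco assembly in bundle sheath cells, at -0.66 ± 0.22 (adjusted p = 0.0579). The list's median log2 difference was 0.61, beside 0.03 for all genes.

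In the lower leaf 2 of the 3 fell and none rose, with a median log2 difference of -0.72 beside 0.16 for all genes, of which 11.3% were called lower and 22.1% higher. bsd2 fell from 237, 179.8 and 215 RPKM in LB to 149, 104 and 132 RPKM in HB, a log2 difference of -0.72 ± 0.22 (adjusted p = 0.0218). rca1 fell from 437, 408 and 455 RPKM to 388, 229 and 242 RPKM, a log2 difference of -0.64 ± 0.23 (adjusted p = 0.0436). The bsd2 call did not survive the loss of HB replicate 2 or of LB replicate 1 or 3, where its adjusted p reached 0.0989. The rca1 call was lost without replicate 2 or 3 of HB and without replicate 1 or 3 of LB, where its adjusted p reached 0.167, and also with no filter (0.0717), after quantile normalization (0.0935) and in a fit of only HB and LB (0.0796). The value of rca3 was -0.90 ± 0.38 (adjusted p = 0.0777). The density difference of the lower leaf minus that of the ear leaf was called for rca1 at -1.24 ± 0.33 (adjusted p = 0.0447), beside 2.09% of all tested genes called lower. That call lay near the threshold, and its dependence on single libraries was not followed. In the upper leaf none of the 3 was called.

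GAPDH genes other than the chloroplast A and B subunits were a list of 6, most of which serve glycolysis in the cytosol. In the lower leaf 3 of the 6 fell and none rose, beside 11.3% of all tested genes called lower. The cytosolic gene GPC1 fell from 1259, 962 and 1193 RPKM in LB to 680.5, 595.7 and 556 RPKM in HB, a log2 difference of -0.89 ± 0.16 (adjusted p = 0.000702). The non-phosphorylating gpn1 fell by a log2 difference of -0.63 ± 0.14 (adjusted p = 0.00306), and the cytosolic gpc2 by -0.47 ± 0.13 (adjusted p = 0.0130, lost without HB replicate 3 or LB replicate 1, with quantile normalization at 0.167 and in a fit of only these 2 groups at 0.126). gpc3 and gpc4, present at 2.04 to 7.75 RPKM in these groups, had positive values of 0.30 ± 0.26 and 0.59 ± 0.38 (adjusted p = 0.395 and 0.248), and the plastid gene GAPCP had -0.03 ± 0.20 (adjusted p = 0.928). The median log2 difference of the 6 was -0.25, and none of the 6 values was as large as those of G3PD and gpb1.

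In the ear leaf 2 of these 6 fell and none rose, beside 4.97% of all tested genes called lower, with a median log2 difference of -0.23. GPC1 fell by a log2 difference of -0.50 ± 0.16 (adjusted p = 0.0484) and gpn1 by -0.46 ± 0.14 (adjusted p = 0.0416). Both calls were lost when any 1 of the 6 libraries was left out, at adjusted p of 0.0800 to 0.157 for GPC1 and 0.0659 to 0.119 for gpn1. Both were also lost with no filter, at adjusted p of 0.134 and 0.0572, GPC1 with median-ratio rescaling (0.0783) and gpn1 without the intensity trend (0.0536). In the upper leaf none of the 6 was called. go1, a glycolate oxidase gene of photorespiration, which starts from the oxygenase reaction of Rubisco, rose in the ear leaf by a log2 difference of 0.64 ± 0.16 (adjusted p = 0.0166, lost without HE replicate 2 or 3 or LE replicate 3, at adjusted p up to 0.0681). In the lower leaf its value was -0.14 ± 0.16 (adjusted p = 0.536).

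**Figure D5:**
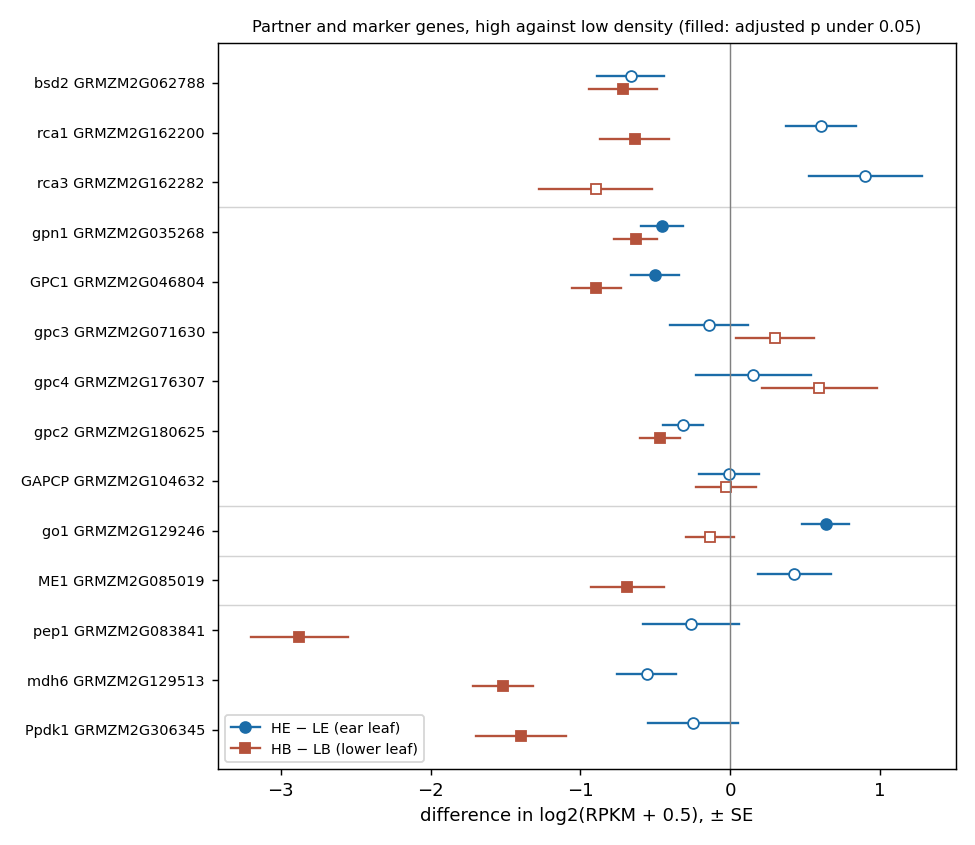
Density differences in log2(RPKM + 0.5), ± SE, of Rubisco activation and assembly genes, other GAPDH genes, go1, the bundle sheath gene ME1 and 3 mesophyll genes, in the ear leaf (blue circles) and the lower leaf (red squares); filled points have an adjusted p under 0.05. The mesophyll genes lie between -1.39 and -2.87 in the lower leaf, and rca1 and rca3 lie right of 0 in the ear leaf and left of 0 in the lower leaf.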

How the data were processed

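The authors deposited RPKM values per gene model, 1 file for each of 18 libraries. Per the labels' protocols, total RNA was made into libraries with an NEBNext Ultra kit. Per the submitters' processing notes, Trimmomatic 0.35, HISAT 0.1.6, HTSeq 0.6.1 and the build B73 RefGen_v3 were used; their settings and the RPKM formula are not given in the sources used here. Groups follow the library titles. The gene models and lists were chosen with earlier results of these data known.

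The 21184 genes that reached 1 RPKM in 3 or more libraries entered a limma fit (version 3.58.1, R 4.3.3) of log2(RPKM + 0.5), which had 1 mean per group and an intensity trend. Residual degrees of freedom were 12 and prior ones 4.47. Tests were 2-sided, p-values were adjusted by Benjamini-Hochberg over all genes tested in each comparison, and an adjusted p under 0.05 was called. Fold changes are on the log2(RPKM + 0.5) scale, which understates changes of low genes. The fit was tested on simulated data. Ratios were tested by exact permutation of libraries within strata, with Benjamini-Hochberg adjustment over 9 tests, in Python 3.11.15.

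The files hold no read counts. In 3350 genes with very low values, 99.2% of 5989 values lay within 0.1 of a whole multiple of the smallest, which gave the relative depth; the absolute depth is unknown, so no counting intervals are given. The median value of 1 read among them was 0.0478 RPKM.

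Names came from a RefSeq table of another assembly, Zm-B73-REFERENCE-NAM-5.0, so no coordinates are printed. That table holds symbols and no descriptions. The planned lists of Calvin cycle genes and of other Rubisco subunits therefore matched no gene, 4 genes that shared only a name with a mesophyll marker were dropped, and GAPCP and go1 were added after the names had been seen. The Rubisco activation and assembly list held 1 more gene, which is not reported here and is left out of its counts. Named genes were the 4 gene models, up to 6 of each list by mean level, and for likeness the 5 genes with a symbol and the 1 gene in all with the highest r. Alternatives changed the pseudocount, filter, scaling, block, groups fitted, trend and libraries.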

Additional observations from a re-analysis of the deposited data

Results flagged for a closer look

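In 4 cases a density difference differed between leaves by the test of the interaction itself. The density difference in log2(RPKM + 0.5) of the lower leaf minus that of the ear leaf was -1.62 for rbcS GRMZM2G098520, -1.82 for rbcS GRMZM2G113033 and -1.73 for G3PD. The difference of the lower leaf minus that of the upper leaf, which uses the LA libraries, was -1.48 for G3PD. Of all tested genes 2.09% were called lower against the ear leaf and 5.10% against the upper leaf. All 4 calls lay near the threshold, at limma adjusted p of 0.0261 to 0.0364. Each was lost without any 1 of at least 6 of the 12 libraries. No group of 3 libraries was large enough for a test of single outlying libraries. The mesophyll gene pep1 was also called lower in both interactions, at -2.61 and -2.69, and its part was not tested.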

How the results depend on the processing

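Pseudocounts of 0.1 and 1 and a fit without the intensity trend changed no call of the 4 gene models, and no alternative turned the direction of any of their calls. The 4 falls in the lower leaf were called under every setting tried that kept all 18 libraries. Log2 differences are printed throughout this section, and where a call changed the cause was not tested. With median-ratio rescaling the median of all genes between HB and LB moved from 0.16 to 0.017, and with quantile normalization to -0.0090.

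With no filter the interactions of the lower and ear leaves were not called for rbcS GRMZM2G098520 (-1.62) and G3PD (-1.73), nor that of the lower and upper leaves for G3PD (-1.48), at adjusted p of 0.0623, 0.0692 and 0.0710. With median-ratio rescaling the same 3 values were -1.75, -1.86 and -1.58 and missed the threshold by little, at adjusted p of 0.0514, 0.0507 and 0.0510. The G3PD value of -1.48 was also not called in a fit of only the groups compared, where rbcS GRMZM2G113033 passed between HE and LE (0.72) and rbcS GRMZM2G098520 between HB and HE (-0.78). Between HB and HE the latter also passed with a filter of 5 RPKM (-0.78), quantile normalization (-0.77) and a scaling to equal sums (-0.77). The gpb1 interaction of the lower and upper leaves passed under these 3 settings too, at -1.65, -1.48 and -1.68.

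All 3 correlations of deviations between libraries of the same replicate number exceeded 0.1 in 2 of 15 pairs of groups. Single correlations ran from -0.25 (HE and LB, replicate 1) to 0.28 (HA and LE, replicate 2). This rule does not decide whether replicate numbers mark a pairing, since the labels do not say what they are. With the replicate block, rbcS GRMZM2G098520 passed between HB and HE (-0.78), gpb1 between LA and LB (0.96) and in both interactions of the lower leaf (-1.76 against the ear leaf, -1.65 against the upper), and rbcS GRMZM2G113033 in the latter (-1.21). No other call of the 4 gene models changed, and the genes called in all, higher and lower, moved from 252 and 264 to 421 and 450 between HA and HE, from 46 and 15 to 110 and 85 between LB and LE, and from 768 and 447 to 1167 and 1153 between LA and LE. In the interaction of the lower and ear leaves they moved from 372 and 443 to 693 and 873, and in that of the upper and ear leaves from 0 and 0 to 5 and 7. A fit of only the groups compared gave fewer calls in some comparisons, 2716 and 1548 between HB and LB and 266 and 164 (from 1047 and 963) between LA and LB. It gave more in others, 2547 and 1621 (from 1900 and 1053) between HE and LE. Between HB and HE it gave 4378 and 2388 (from 3647 and 2257).

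Among values that were not called, quantile normalization turned the sign of G3PD between HE and LE (-0.11), of rbcS GRMZM2G098520 between HA and LA (0.054) and LA and LE (-0.024), and of gpc4 between HE and LE (-0.045). Scaling to equal sums turned the 2 values of rbcS GRMZM2G098520 to 0.00055 and -0.0043. With a median in place of a mean, the log2 ratio of G3PD to gpb1 by density was 0.32 and that of rbcS to GAPDH between upper and ear leaf -0.67, both at an adjusted p of 0.06 by the exact permutation test. Of the list genes lower, 1 other GAPDH gene (gpn1) was called in HE with median-ratio rescaling and 1 Rubisco activation or assembly gene (bsd2) in HB with quantile normalization.

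Leaving out 1 library at a time gave these ranges. Between HB and LB, rbcS GRMZM2G098520 ran from -1.19 to -0.80 and rbcS GRMZM2G113033 from -1.36 to -0.93. Between HB and HE, rbcS GRMZM2G098520 ran from -0.95 to -0.56. In the interaction of the lower and ear leaves the 4 gene models, in the order of the report, ran from -1.80 to -1.41, -2.08 to -1.63, -2.09 to -1.43 and -2.31 to -1.38. In that of the lower and upper leaves rbcS GRMZM2G113033 ran from -1.47 to -0.87, G3PD from -1.84 to -1.18 and gpb1 from -2.21 to -1.28, and in that of the upper and ear leaves gpb1 ran from -0.37 to 0.059.

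Values that were not called and changed sign or call were, between HA and LA, rbcS GRMZM2G098520 (-0.36 to 0.21) and rbcS GRMZM2G113033 (-0.24 to 0.32). Between LA and LE they were rbcS GRMZM2G098520 (-0.15 to 0.40) and rbcS GRMZM2G113033 (-0.29 to 0.27). Between LA and LB they were G3PD (-0.12 to 0.54) and gpb1 (0.41 to 1.34), and between LB and LE G3PD (-0.26 to 0.40) and gpb1 (-0.82 to 0.12). G3PD ran from -0.097 to 0.20 between HA and HE, and rbcS GRMZM2G098520 from -0.0031 to 0.44 between HA and HB. For upper against ear leaf the log2 ratio between the rbcS models ran from 0.088 to 0.17 and that of G3PD to gpb1 from -0.42 to -0.25.

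In the lists, called Rubisco activation and assembly genes ran from 0 to 1 lower in HE and 0 to 3 lower in HB. Other GAPDH genes called lower in HE came to 0 without any 1 library. Values of list genes that changed sign were gpc3 (-0.29 to 0.040), gpc4 (-0.12 to 0.39) and GAPCP (-0.19 to 0.21) between HE and LE, and GAPCP (-0.17 to 0.11), go1 (-0.27 to 0.018) and sut1 (-0.080 to 0.15) between HB and LB, where sut1 was -0.12 with median-ratio rescaling. No called ratio was lost when 1 library was left out. The unknown absolute depth limits what can be said of the lowest genes, and not of the 4 gene models.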

Other observations

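The bundle sheath gene ME1 and the rbcS models had their highest group means in the same 2 groups. ME1 averaged 891 ± 13.3 RPKM in LB and 884 ± 72.9 in HE, and 459 ± 129 to 661 ± 106 RPKM in the other 4 groups (SD, n = 3). The mesophyll gene pep1 averaged 484 ± 124 RPKM in HB and 3736 ± 1606 to 5720.3 ± 949 RPKM elsewhere. These values are given without a test.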
